A study of Mus musculus with 24 samples.

Results

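The circadian clock and output genes described here are Dbp, Tef, Nfil3, Nr1d1, Nr1d2, Per1, Per2, Per3, Arntl and Clock. They were taken by gene symbol, and every probe set whose annotation names exactly 1 of these symbols was kept. That gave 10 genes with 25 probe sets, out of 18193 genes and 45037 probe sets measured in the series. RNA of whole hearts was hybridised to Affymetrix arrays, 1 array for each of 24 hearts, and all mice were 90 days old. ARG mice carry a human beta1-Arg389 cDNA, the Arg389 form of the beta1-adrenergic receptor. GLY mice carry the Gly389 form of the same receptor, and AC5 mice carry a human AC5 cDNA, the usual name of adenylyl cyclase type 5. In all 3 the promoter of alpha-myosin heavy chain drives the transgene in heart muscle cells, and NTG mice carry no transgene. There were 6 hearts for each genotype, called biological replicates in the study's design. The strain, the sex, the number of transgenic lines and the time of day at which hearts were taken are not given in the sources used here. Each value is therefore a single level per heart, and no rhythm, phase or amplitude was measured.

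The circadian clock is a loop of transcription that runs in nearly every cell, heart muscle cells included. CLOCK and BMAL1 (the protein of Arntl) bind E-boxes and switch on the period and cryptochrome genes, whose proteins then repress CLOCK and BMAL1. The nuclear receptors REV-ERB alpha and beta (Nr1d1 and Nr1d2) repress Arntl through ROR elements. DBP and TEF activate genes through D-boxes, and NFIL3 (also called E4BP4) represses through the same site. In the heart the clock is known to time genes of metabolism and of ion channels.

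Promoter stretches are shown for the genes Per3, Tef and Per1, because Tef, Per1 and 2 of the 6 Per3 probe sets fell in ARG hearts and their windows hold a D-box or an E-box. Each window comes from RefSeq on GRCm38.p6 and runs from 250 bases before to 50 bases after a gene's start, and 9 of the 10 genes have one (14 windows, since Tef, Per1, Arntl and Clock have more than 1). Per2 has no window, so no promoter of Per2 was searched. For the others, both strands of the 250 bases before the start were searched. The letters were CACGTG for the E-box, CACGTT for a variant E-box, TTATGTAA or TTACGTAA for the D-box, and AGGTCA for the core of the ROR element. No 2 matches overlapped in a window of these genes. The stretches are printed 5′ to 3′ on the strand of the gene, and capitals mark the match.
Per3, chr4:151044792-151044894, minus strand, 229 to 127 bases before the start: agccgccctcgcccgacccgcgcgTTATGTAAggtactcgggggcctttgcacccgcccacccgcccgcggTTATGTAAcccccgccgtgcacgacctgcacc
Tef, window 1, chr15:81802522-81802575, plus strand, 151 to 98 bases before the start: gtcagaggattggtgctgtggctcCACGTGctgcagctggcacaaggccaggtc
Tef, window 2, chr15:81811252-81811305, plus strand, 162 to 109 bases before the start: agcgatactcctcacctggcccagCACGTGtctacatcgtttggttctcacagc
Per1, window 1, chr11:69098759-69098812, plus strand, 190 to 137 bases before the start: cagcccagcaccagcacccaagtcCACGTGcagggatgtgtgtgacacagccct
The Per3 window held 2 D-boxes, which 0.0213% of all 32851 windows do, and a D-box at all stood in 0.931% of them. An E-box stood in 6.02% of all windows, and among these genes in windows 1 and 2 of Tef and window 1 of Per1. The variant E-box stood in the window of Nr1d1 and in 3.85% of all windows. The ROR core stood in windows of Nfil3, Nr1d2, Per1 and Clock and in 14.0% of all windows. Windows of Dbp, which fell in ARG hearts too, and of Arntl held none of the searched letters. A match describes these letters only.

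Values are the deposited ratios to the NTG level, taken here on the log2 scale, so that 0 is the NTG level. A ratio holds no signal level, so neither the genes nor their probe sets can be ranked by abundance, and the presence of heart muscle cell transcripts cannot be checked by their level. Array medians lay between -0.05 and 0.09. On average the SD between hearts was 0.192 in ARG, 0.221 in GLY, 0.155 in AC5 and 0.143 in NTG. The arrays with the lowest weights estimated by limma were those of ARG replicate 1 (0.478) and of GLY replicates 1 (0.354) and 3 (0.312), all below 0.5. NTG values centred near 1 separately within replicates 1 to 3 and within replicates 4 to 6, sets that the labels do not name. Some changes are therefore also given within each set. A change is called where its limma adjusted p, over all 45037 probe sets, is under 0.05, and "rose" and "fell" are used of called changes.

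In ARG hearts Nfil3 rose 2.81-fold, while its counterparts Dbp and Tef fell. The period gene Per1 and probe sets of Per2 and Per3 fell too, and all these falls were of 1.33- to 2.27-fold. Nr1d1 and Clock had no called change. At 1 probe set per gene, picked by its suffix and number without regard to values, 1 of the 10 genes rose and 3 fell in ARG against NTG hearts. Over all probe sets of the series 4.04% rose and 5.63% fell in this comparison. In a fit with 1 probe set for each of the 18193 genes, 823 genes rose and 1368 fell. Counting every probe set of the 10 genes, 2 of 25 rose and 8 fell. The median change of the 10 genes was -0.32, and that of all probe sets was 0.00. In whole hearts fewer cells of a type and less RNA per cell cannot be told apart.

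**Figure D1:**
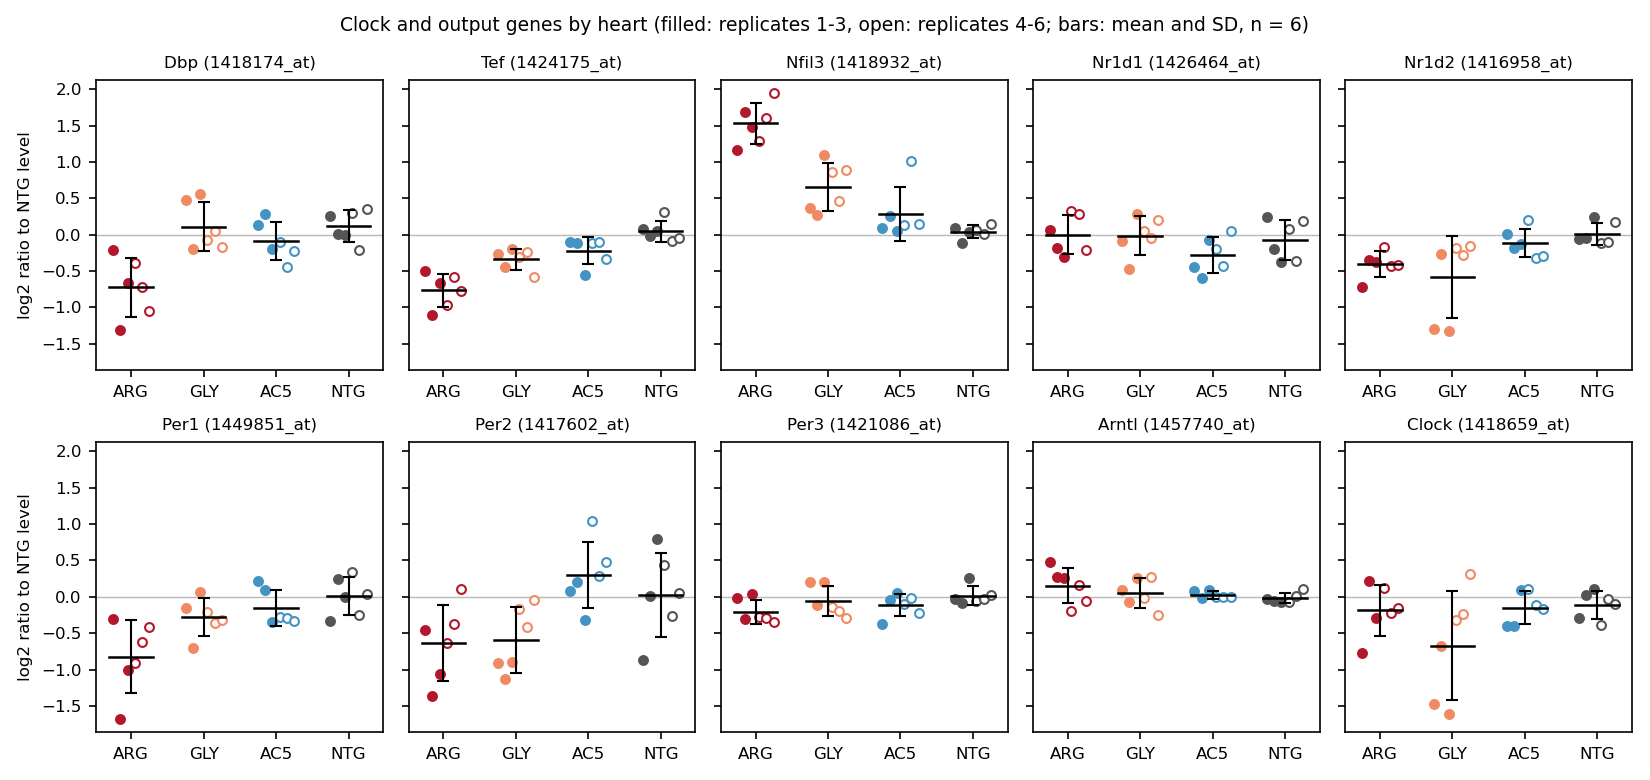
Log2 ratio to the NTG level (vertical axis) of the 10 genes at 1 probe set each, by heart, in ARG, GLY, AC5 and NTG hearts. Points are hearts (filled for replicates 1 to 3, open for 4 to 6), and bars give the mean and SD of 6 hearts. All 6 ARG hearts lie above every other heart for Nfil3, and ARG hearts are the lowest group for Dbp, Tef and Per1.

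Nfil3, the repressor at D-boxes, has 1 probe set (1418932_at). Its log2 ratio was 1.17 at the lowest, 1.54 at the median and 1.94 at the highest in ARG hearts, 0.27, 0.66 and 1.09 in GLY hearts, 0.05, 0.14 and 1.02 in AC5 hearts, and -0.12, 0.05 and 0.15 in NTG hearts. The ARG hearts lay above every heart of the other groups, and the GLY hearts lay above every NTG heart. AC5 replicate 5, at 1.02, stood apart from the other AC5 hearts, which lay between 0.05 and 0.25. Nfil3 rose by 1.49 ± 0.15 (log2 change ± SE of the fit, n = 6 hearts per group throughout) in ARG against NTG hearts (limma adjusted p = 2.08e-07). It also rose in GLY against NTG hearts, by 0.62 ± 0.15 (adjusted p = 0.0162), and that call was lost without GLY replicate 3 (adjusted p = 0.0543) and with a robust, trended error model (adjusted p = 0.0628). ARG hearts exceeded GLY hearts by 0.87 ± 0.15 (adjusted p = 0.00246), which was lost after quantile normalization (0.44, adjusted p = 0.218). Within replicates 1 to 3 and 4 to 6 the change in ARG against NTG hearts was 1.44 and 1.54. In AC5 against NTG hearts it was 0.24 ± 0.15 (adjusted p = 0.825).

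Dbp, which encodes an activator at D-boxes and is a widely used readout of the clock, has probe sets 1418174_at and 1438211_s_at. At 1418174_at the lowest, median and highest log2 ratios were -1.31, -0.70 and -0.21 in ARG hearts, -0.20, -0.01 and 0.56 in GLY hearts, -0.45, -0.15 and 0.28 in AC5 hearts, and -0.22, 0.13 and 0.35 in NTG hearts. The ARG hearts lay below all GLY hearts by a narrow margin, and 1 end of their range just met that of the NTG hearts. Dbp fell by 0.84 ± 0.16 in ARG against NTG hearts (adjusted p = 9.48e-04), and at 1438211_s_at by 0.87 ± 0.18 (adjusted p = 0.00192). Both calls held when any single heart was left out, and at 1418174_at the changes in replicates 1 to 3 and 4 to 6 were -0.81 and -0.87. In GLY against NTG hearts the change was -0.01 ± 0.16 (adjusted p = 0.992, 95% interval -0.34 to 0.33). Set directly against GLY hearts, ARG hearts were lower by a change of -0.83 ± 0.16 (adjusted p = 0.00701). That difference lost its call after quantile normalization (-0.68, adjusted p = 0.1001) and when only ARG and GLY hearts were fitted (adjusted p = 0.0869).

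Tef, the other activator at D-boxes, has 3 probe sets. At 1424175_at the log2 ratio was -1.11 at the lowest, -0.72 at the median and -0.51 at the highest in ARG hearts, -0.58, -0.29 and -0.20 in GLY hearts, -0.55, -0.12 and -0.10 in AC5 hearts, and -0.09, 0.01 and 0.31 in NTG hearts. Every heart of the 3 transgenic groups lay below every NTG heart, and the ARG and GLY ranges overlapped. Tef fell by 0.81 ± 0.10 in ARG against NTG hearts (adjusted p = 3.96e-06), with -0.79 and -0.83 within replicates 1 to 3 and 4 to 6. It fell by 0.39 ± 0.10 in GLY against NTG hearts (adjusted p = 0.0252), and that call was lost without NTG replicate 1 (adjusted p = 0.0503), 3 (0.0512) or 4 (0.0637) and after quantile normalization (0.0897). The change in AC5 against NTG hearts was -0.27 ± 0.10 (adjusted p = 0.477). Probe set 1450184_s_at fell by 0.81 ± 0.19 in ARG against NTG hearts (adjusted p = 0.00514, and 0.105 after quantile normalization). At 1438033_at the change was -0.13 ± 0.10 (adjusted p = 0.584), so the probe sets of Tef did not all show the fall.

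Per1, a repressor of the loop whose promoter stretch is printed above, has 1 probe set (1449851_at). Its lowest, median and highest log2 ratios were -1.68, -0.77 and -0.31 in ARG hearts, -0.70, -0.26 and 0.07 in GLY hearts, -0.34, -0.29 and 0.22 in AC5 hearts, and -0.33, 0.02 and 0.35 in NTG hearts. ARG hearts spread the most (SD 0.50), and their highest values overlapped the lowest NTG values. Per1 fell by 0.84 ± 0.17 in ARG against NTG hearts (adjusted p = 0.00179). The changes within replicates 1 to 3 and 4 to 6 were -0.98 and -0.70. The change in GLY hearts was -0.29 ± 0.17 (adjusted p = 0.396) and in AC5 hearts -0.16 ± 0.17 (adjusted p = 0.927), both against NTG. ARG against GLY hearts gave -0.55 ± 0.17 (adjusted p = 0.127), with a 95% interval of -0.91 to -0.19, and without ARG replicate 1 the difference was called (-0.65, adjusted p = 0.0440).

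Per2, a second period gene, gave different readings at its 3 probe sets. At 1457350_at the lowest, median and highest log2 ratios were -1.13, -0.61 and -0.16 in ARG hearts, -0.33, -0.04 and 0.47 in GLY hearts, -0.36, -0.07 and 0.25 in AC5 hearts, and -0.46, 0.09 and 0.33 in NTG hearts. Here the ARG hearts were the low group, with some overlap with each of the others. This probe set fell by 0.64 ± 0.15 in ARG against NTG hearts (adjusted p = 0.00469), and its change in GLY against NTG hearts was -0.03 ± 0.15 (adjusted p = 0.936). At 1417602_at, the probe set that the suffix rule picks, NTG hearts alone ran from -0.87 to 0.79, the widest NTG range among the picked probe sets. Its changes were -0.66 ± 0.26 in ARG (adjusted p = 0.116), -0.62 ± 0.26 in GLY (adjusted p = 0.172) and 0.27 ± 0.26 in AC5 hearts (adjusted p = 0.915), each against NTG. The ARG change at 1417602_at was called without NTG replicate 1 (-0.84, adjusted p = 0.0326) without ARG replicate 6 (-0.81, adjusted p = 0.0458) and with a term for both sets of replicates (adjusted p = 0.0452). At 1417603_at the changes against NTG lay between -0.10 and -0.06, and none was called.

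Per3, the third period gene and the one with 2 D-boxes in its printed promoter stretch, has 6 probe sets, of which 1421087_at moved the most. Its log2 ratio was -1.29 at the lowest, -1.12 at the median and -0.94 at the highest in ARG hearts, -0.91, -0.67 and -0.57 in GLY hearts, -0.83, -0.40 and -0.22 in AC5 hearts, and -0.08, 0.03 and 0.18 in NTG hearts. The ARG hearts lay below all other hearts and every transgenic heart lay below every NTG heart, while GLY and AC5 ranges overlapped. The probe set fell by 1.18 ± 0.09 in ARG against NTG hearts (2.27-fold, adjusted p = 6.11e-09) and by 0.75 ± 0.09 in GLY against NTG hearts (adjusted p = 3.09e-05). It was the only one of the 25 to be called in AC5 against NTG hearts, where it fell by 0.50 ± 0.09 (adjusted p = 0.0198). That AC5 call was lost without NTG replicate 2 (adjusted p = 0.0557), 3 (0.0610) or 6 (0.0697), without AC5 replicate 2 (0.0742) or 3 (0.0674) and with a robust, trended error model (0.293). ARG hearts were below GLY hearts by a change of -0.43 ± 0.09 (adjusted p = 0.0145, and 0.343 after quantile normalization). Within replicates 1 to 3 and 4 to 6 the change against NTG was -1.24 and -1.12 in ARG hearts, -0.80 and -0.70 in GLY hearts, and -0.52 and -0.48 in AC5 hearts.

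The other Per3 probe sets did not share that size of change. Probe set 1460662_at fell by 0.41 ± 0.11 in ARG against NTG hearts (adjusted p = 0.0107, and 0.211 after quantile normalization). At 1421086_at, which the suffix rule picks, the ARG change was -0.22 ± 0.10 (adjusted p = 0.188). The changes at 1441445_at, 1442243_at and 1458176_at lay between -0.11 and 0.08 in ARG hearts and between 0.13 and 0.36 in GLY hearts, both against NTG, and none was called. Without NTG replicate 6, GLY replicate 4 or GLY replicate 6, 1441445_at was called higher in GLY hearts, at 0.29 to 0.31 (adjusted p between 0.0204 and 0.0455), and within replicates 1 to 3 it was called at 0.43 (adjusted p = 0.0332). Which transcripts of Per3 each probe set reads was not analysed here.

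**Figure D2:**
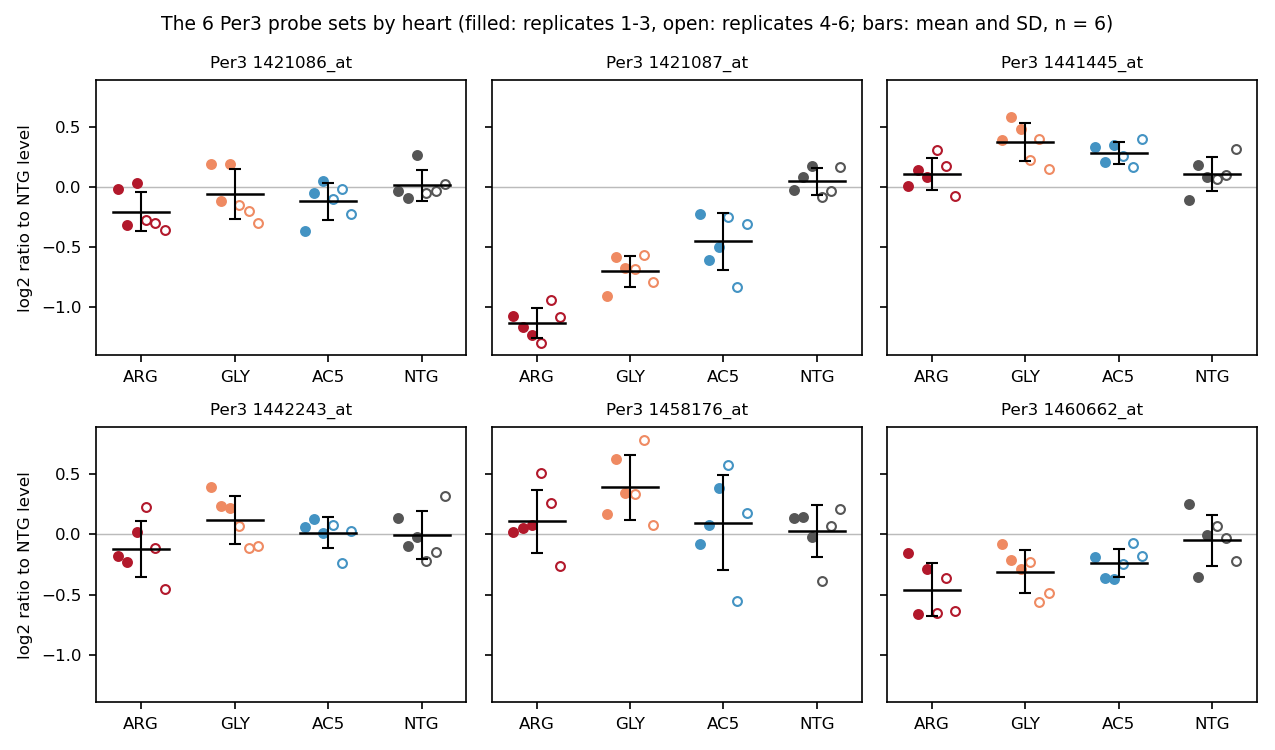
Log2 ratio to the NTG level (vertical axis) at each of the 6 Per3 probe sets by heart, in ARG, GLY, AC5 and NTG hearts. Points are hearts (filled for replicates 1 to 3, open for 4 to 6), and bars give the mean and SD of 6 hearts. Group means at 1421087_at run from -1.13 in ARG hearts through -0.70 in GLY and -0.45 in AC5 hearts to 0.05 in NTG hearts, while at 1441445_at ARG and NTG hearts have the same mean of 0.11.

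Arntl encodes BMAL1, the partner of CLOCK. At 1425099_a_at its log2 ratio was -0.07 at the lowest, 0.28 at the median and 0.59 at the highest in ARG hearts, -0.42, -0.19 and 0.29 in GLY hearts, -0.55, -0.39 and -0.14 in AC5 hearts, and -0.45, -0.28 and 0.25 in NTG hearts. ARG hearts were the high group and stood above all AC5 hearts, but overlapped the NTG and GLY hearts. Arntl rose by 0.44 ± 0.14 in ARG against NTG hearts (adjusted p = 0.0400), opposite in direction to the period genes. This call was lost without NTG replicate 1, 3, 4 or 6 or without ARG replicate 2, 5 or 6 (0.38 to 0.43, adjusted p between 0.0727 and 0.111), after quantile normalization (adjusted p = 0.0985) and with ARG and NTG hearts alone (0.0515). In ARG against AC5 hearts it rose by 0.64 ± 0.14 (adjusted p = 0.00491), which held without any single heart. Within replicates 1 to 3 and 4 to 6 the ARG change against NTG at 1425099_a_at was 0.48 and 0.40, neither called (adjusted p = 0.208 and 0.324). At 1457740_at, the probe set of the suffix rule, the ARG change against NTG was 0.17 ± 0.10 (adjusted p = 0.333). Its ARG log2 ratios were 0.27 to 0.48 in replicates 1 to 3 and -0.20 to 0.16 in replicates 4 to 6. The limma interaction of genotype and set was -0.44 ± 0.17 there (unadjusted p = 0.0161, adjusted p = 0.791).

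Clock, the other activator of the loop, had no called change at its 4 probe sets in any of the 6 comparisons. At 1418659_at the lowest, median and highest log2 ratios were -0.77, -0.19 and 0.22 in ARG hearts, -1.62, -0.50 and 0.31 in GLY hearts, -0.41, -0.14 and 0.11 in AC5 hearts, and -0.39, -0.07 and 0.10 in NTG hearts. The GLY hearts spread the most, with replicates 1 and 3 at -1.47 and -1.62. The change in GLY against NTG hearts was -0.56 ± 0.22 (adjusted p = 0.160), with -1.20 in replicates 1 to 3 alone, which was called (adjusted p = 0.0174), and 0.09 in 4 to 6 alone. At the other 3 probe sets the GLY changes against NTG were -0.10, -0.08 and 0.19, none called. The test of the difference between these sets gave 1.29 ± 0.33 (unadjusted p = 6.05e-04, adjusted p = 0.154). Without GLY replicate 6 the change was called (-0.75, adjusted p = 0.0198). In ARG against NTG hearts the 4 probe sets changed by -0.07 to 0.32.

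Nr1d1 and Nr1d2, the repressors that feed back on Arntl, differed in what they showed. Nr1d1 (1426464_at) ranged from -0.31 to 0.32 in ARG hearts, from -0.47 to 0.28 in GLY hearts, from -0.59 to 0.04 in AC5 hearts and from -0.38 to 0.24 in NTG hearts. These ranges all overlapped, and the ARG change against NTG was 0.07 ± 0.14 (adjusted p = 0.872), with a 95% interval of -0.22 to 0.36. For Nr1d2 (1416958_at) the lowest, median and highest log2 ratios were -0.72, -0.39 and -0.17 in ARG hearts, -1.33, -0.28 and -0.15 in GLY hearts, -0.32, -0.16 and 0.20 in AC5 hearts, and -0.12, -0.06 and 0.24 in NTG hearts. Every ARG and every GLY heart lay below every NTG heart, and GLY replicates 1 and 3, at -1.30 and -1.33, stood far below the other GLY hearts. Nr1d2 fell by 0.60 ± 0.17 in GLY against NTG hearts (adjusted p = 0.0351). Its change was -1.01 in replicates 1 to 3 alone and -0.19 in 4 to 6 alone. That call was lost without GLY replicate 1 (-0.46, adjusted p = 0.102) or 3 (-0.45, adjusted p = 0.107), without NTG replicate 1, 2, 3 or 6 (adjusted p between 0.0556 and 0.0881), with array weights (adjusted p = 0.0619), after quantile normalization (-0.38, adjusted p = 0.111), with GLY and NTG hearts alone (0.1304) and with the mean of both probe sets (0.0868). In ARG against NTG hearts the change was -0.42 ± 0.17 (adjusted p = 0.129), and it was called with array weights (-0.41, adjusted p = 0.0247) and with ARG and NTG hearts alone (adjusted p = 0.00701). At the second probe set of Nr1d2, 1416959_at, log2 ratios of -1.07 to -0.10 in ARG hearts and of -1.02 to 0.11 in GLY hearts overlapped the -0.64 to 0.60 of NTG hearts. Its changes against NTG were -0.46 ± 0.20 in ARG hearts (adjusted p = 0.1700) and -0.38 ± 0.20 in GLY hearts (adjusted p = 0.308), so neither was called.

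**Figure D3:**
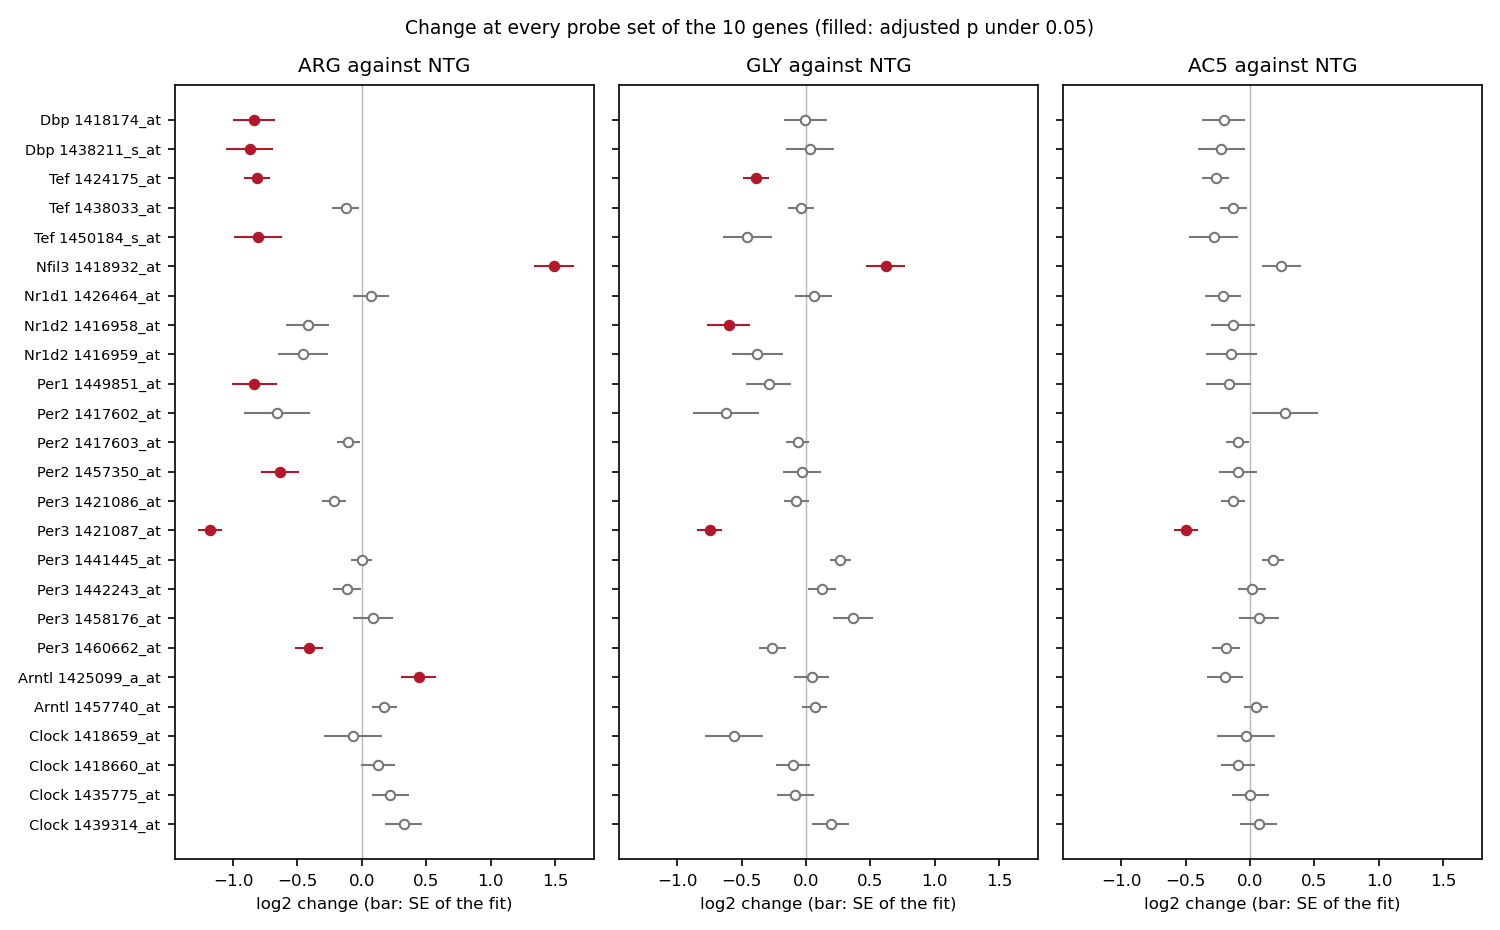
Log2 change (horizontal axis) with the SE of the fit at all 25 probe sets of the 10 genes, in ARG, GLY and AC5 hearts, each against NTG hearts. Filled points have an adjusted p under 0.05: there are 10 in ARG, 4 in GLY and 1 in AC5 hearts.

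In GLY against NTG hearts 1 of the 10 genes rose (Nfil3) and 2 fell (Tef and Nr1d2), and 4 of 25 probe sets were called, the fourth being 1421087_at of Per3. Over all probe sets 1.55% rose and 3.53% fell in this comparison. In AC5 against NTG hearts none of the 10 genes was called at its picked probe set, where over all probe sets 0.0688% rose and 0.0733% fell. The median change of the 10 genes was -0.18 in GLY and -0.13 in AC5 hearts, beside 0.03 and 0.00 over all probe sets. These comparisons share the NTG hearts. For Nfil3, Tef at 1424175_at and Per3 at 1421087_at the group means stood in the order ARG, GLY, AC5 and NTG, from the farthest from 0 to the nearest. The difference between GLY and AC5 hearts was not called for any of the 3, with changes of 0.38 ± 0.15 for Nfil3 (adjusted p = 0.310), -0.12 ± 0.10 for Tef (adjusted p = 0.703) and -0.25 ± 0.09 for Per3 (adjusted p = 0.261). Per1 and 1450184_s_at of Tef stood in that order too, while Dbp and Nr1d2 at their picked probe sets did not. The order was not counted over all 25 probe sets.

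The direct comparison of both receptor forms asked where Arg389 and Gly389 hearts differ. In ARG against GLY hearts Nfil3 rose and Dbp and Tef fell, which is 1 gene up and 2 down of 10, beside 0.793% of all probe sets that rose and 0.713% that fell. Tef differed by -0.43 ± 0.10 (adjusted p = 0.0279), and this call was lost without GLY replicate 1, 3, 4 or 5 or ARG replicate 2, 4 or 6 (-0.43 to -0.36, adjusted p between 0.0510 and 0.0870). Probe set 1457350_at of Per2 was lower in ARG hearts by a change of -0.60 ± 0.15 (adjusted p = 0.0338). It kept its call in 4 of the 12 fits without 1 heart, and reached an adjusted p of 0.101 without ARG replicate 2. The other hearts whose absence ended that call were GLY replicates 1, 2, 3 and 5 and ARG replicates 3, 4 and 5 (adjusted p between 0.0515 and 0.0861). After quantile normalization no member gene was called between ARG and GLY hearts.

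In ARG against AC5 hearts 1 of the 10 genes rose (Nfil3, by 1.25 ± 0.15) and 4 fell (Dbp, Tef, Per1 and Per2), beside 2.52% of all probe sets that rose and 2.41% that fell. Tef fell by 0.55 ± 0.10 (adjusted p = 0.00121), and 1421087_at of Per3 fell by 0.68 ± 0.09 (adjusted p = 4.18e-05). Both of these, with Nfil3, kept their calls when any single heart was left out, whereas Dbp, Per1 and Per2 depended on single hearts. Dbp fell by 0.63 ± 0.16 (adjusted p = 0.0202), a call lost without AC5 replicate 1 or 2 or ARG replicate 2 or 6 (adjusted p between 0.0526 and 0.0644). Per1 fell by 0.67 ± 0.17 (adjusted p = 0.0206), lost without AC5 replicate 1 or 2 or ARG replicate 2 (adjusted p between 0.0556 and 0.0635). Per2 fell at 1417602_at by 0.93 ± 0.26 (adjusted p = 0.0300), lost without AC5 replicate 4, 5 or 6 or ARG replicate 2, 3 or 4 (adjusted p between 0.0501 and 0.0954). The highest of the 24 hearts at this probe set was AC5 replicate 4, at 1.05. After quantile normalization only Nfil3 stayed called among the 10 genes at their picked probe sets. In GLY against AC5 hearts none of the 10 genes was called, while 0.255% of all probe sets rose and 0.437% fell.

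Of a list of 16 further genes of the loop, 14 were measured. In ARG against NTG hearts none of them rose and 3 fell (Hlf, Ciart and Cry2), beside 4.04% of all probe sets that rose and 5.63% that fell. The median change of the 14 genes was -0.06. Hlf, the third activator at D-boxes, fell by 0.60 ± 0.12 (adjusted p = 0.00169). Ciart, a repressor of CLOCK and BMAL1, fell by 0.57 ± 0.16 (adjusted p = 0.0189), and this call was lost without ARG replicate 2 (0.0559) or NTG replicate 6 (0.0552). Cry2, a cryptochrome that partners the period proteins, fell by 0.29 ± 0.09 (adjusted p = 0.0301), which was lost without ARG replicate 2 or 3 or NTG replicate 1, 3, 4 or 5 (adjusted p between 0.0503 and 0.0943). In GLY against NTG hearts 1 of the 14 fell, beside 3.53% of all probe sets. This gene, Timeless, fell by 0.39 ± 0.11 (adjusted p = 0.0394) and was called at 1 of its 2 probe sets. Without any 1 of GLY replicates 1, 2 and 3 or NTG replicates 1, 2, 3, 5 and 6 its adjusted p lay between 0.0552 and 0.114, and within replicates 4 to 6 its change was -0.10. In ARG against AC5 hearts Hlf (-0.57 ± 0.12, adjusted p = 0.00540) and Ciart (-0.63 ± 0.16, adjusted p = 0.0152) fell, beside 2.41% of all probe sets. No gene of the list was called in the other 3 comparisons.

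Among clock output genes, a list of 10 of which 9 were measured, 1 rose and 3 fell in ARG against NTG hearts. Over all probe sets 4.04% rose and 5.63% fell in that comparison. The median change of the 9 genes was -0.18. Dgat2, an enzyme of triglyceride synthesis, fell by 1.00 ± 0.13 (adjusted p = 4.14e-06). Kcnip2, a subunit of the channel that carries the transient outward potassium current, fell by 0.80 ± 0.09 (adjusted p = 1.44e-06). Both fell in GLY against NTG hearts too, Dgat2 by 0.62 ± 0.13 (adjusted p = 0.00386) and Kcnip2 by 0.53 ± 0.09 (adjusted p = 0.00135). The Dgat2 call in GLY hearts was lost after quantile normalization (-0.50, adjusted p = 0.1401). Nampt, an enzyme of NAD synthesis, fell by 0.51 ± 0.16 in ARG against NTG hearts (adjusted p = 0.0364), which was lost without ARG replicate 1, 3 or 4 or NTG replicate 1, 2, 3, 4 or 6 (adjusted p between 0.0567 and 0.0940). Klf10, a zinc finger factor, rose by 0.55 ± 0.15 (adjusted p = 0.0159), a call lost without NTG replicate 5 (0.0525) and after quantile normalization (0.139). In ARG against AC5 hearts Dgat2 fell by 0.78 ± 0.13 (adjusted p = 0.0798 after quantile normalization) and Kcnip2 by 0.60 ± 0.09.

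**Figure D4:**
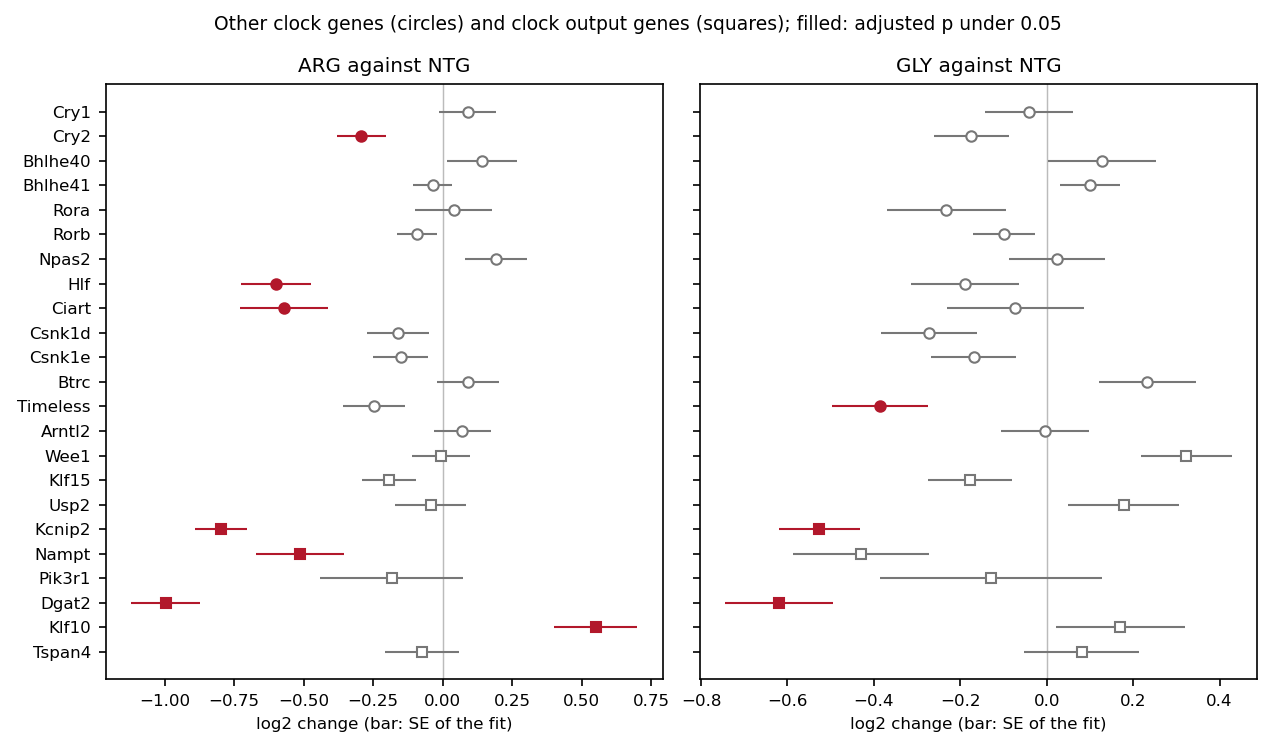
Log2 change (horizontal axis, with its own range in each panel) with the SE of the fit for 14 further clock genes (circles) and 9 clock output genes (squares), in ARG and in GLY hearts, each against NTG hearts. Filled points have an adjusted p under 0.05: Cry2, Hlf, Ciart, Kcnip2, Nampt, Dgat2 and Klf10 in ARG hearts, and Timeless, Kcnip2 and Dgat2 in GLY hearts.

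Markers of other cells moved in the same hearts. Of 16 macrophage markers 10 rose in ARG against NTG hearts, with a median change of 0.75 and no value at 0. Over all probe sets 4.04% rose and 5.63% fell in that comparison. In ARG against GLY hearts 6 of the 16 rose (median 0.55), beside 0.793% of all probe sets. In ARG against AC5 hearts 11 of the 16 rose (median 0.69), beside 2.52% of all probe sets. The summed ratio of the 16 markers per heart was 19.4 to 33.2 in ARG hearts, 13.1 to 23.3 in GLY hearts, 14.3 to 17.7 in AC5 hearts and 15.2 to 17.1 in NTG hearts. Of 8 fibroblast markers 3 rose and 1 fell, and of 8 endothelial markers 2 fell, in ARG against NTG hearts. None of 8 heart muscle cell markers was called, and their summed ratio was 6.87 to 8.60 in ARG hearts and 7.27 to 9.04 in NTG hearts. The part of these cells in the changes of the clock genes was not tested.

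Whether the genes moved together from heart to heart was examined on deviations from the mean of each genotype within replicates 1 to 3 and 4 to 6, over 24 hearts and all 45 pairs of genes at their picked probe sets. Deviations from means of 3 hearts are not fully independent. After Benjamini-Hochberg adjustment 5 pairs passed by Pearson's r in a permutation test (two-sided, 100000 resamples). Tef and Clock had r = -0.81 and rho = -0.76 (permutation p = 3.6e-04 and 4.3e-04, adjusted 0.0162 and 0.00967), with r = -0.75 without the 2 hearts farthest from the median of Tef. Tef and Per1 had r = 0.75 and rho = 0.67 (permutation p = 0.00227 and 0.00348, adjusted 0.0255 and 0.0391), and r = 0.63 without 2 hearts. Per1 and Per2 had r = 0.67 and rho = 0.79 (permutation p = 0.00144 and 1.8e-04, adjusted 0.0219 and 0.0081), and r = 0.61 without 2 hearts.

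Nr1d2 and Clock had r = 0.72 and rho = 0.70 (permutation p = 0.00146 and 6.6e-04, adjusted 0.0219 and 0.0099), and r = 0.63 without 2 hearts. The arrays with the lowest weights, ARG replicate 1 and GLY replicates 1 and 3, held the lowest log2 ratios of both genes. These were -0.72, -1.30 and -1.33 for Nr1d2 and -0.77, -1.47 and -1.62 for Clock. In the 18 ARG, AC5 and NTG hearts alone Nr1d2 and Clock had r = 0.60 and rho = 0.68 (permutation p = 0.0169 and 0.00562, adjusted 0.19 and 0.0843). That setting leaves out every GLY heart and keeps ARG replicate 1. The part of the low-weight arrays by themselves in the correlations was not tested. Per1 and Clock had r = -0.75 and rho = -0.65 (permutation p = 0.00511 and 0.0104, adjusted 0.046 and 0.0938), and r = -0.61 without 2 hearts. All 5 pairs had the same sign within replicates 1 to 3 as within replicates 4 to 6. Nfil3 did not pass with Dbp (r = -0.24, permutation p = 0.378, adjusted 0.591) or with Tef (r = 0.04, permutation p = 0.846, adjusted 0.91). By Pearson's r no pair passed in the 18 ARG, AC5 and NTG hearts alone, where Tef and Clock had r = -0.84 (permutation p = 0.00343, adjusted 0.0826). By rank, Per1 and Per2 passed there (rho = 0.85, permutation p = 4.8e-04, adjusted 0.0216). With other probe sets of Arntl, Per2 and Per3, 3 pairs passed by r, Per1 with Per2 and Per1 with Clock not among them. The other genes kept their picked probe sets there, so the pairs of Clock were read at 1418659_at alone. Per1 and Clock thus had the same r of -0.75 there (permutation p = 0.00487, adjusted 0.0548), and only the adjusted p passed 0.05. An adjusted p depends on the p-values of the other pairs too, so this loss does not show a weaker correlation of Per1 and Clock. When only the genotype means were taken off, 4 pairs passed by r. Per1 and Per2 (r = 0.48, permutation p = 0.0279, adjusted 0.129) and Per1 and Clock (r = -0.47, permutation p = 0.0147, adjusted 0.11) then did not pass, while Dbp and Clock did (r = -0.68, permutation p = 8e-04, adjusted 0.012).

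Over all 24 hearts, with genotype differences left in, the genes most like Nfil3 among 18193 were Mt2, a metallothionein (r = 0.92), Npl (r = 0.92) and Ccl8, a chemokine (r = 0.91). Those most like Dbp were Tcap, a protein of the sarcomere's Z-disc (r = 0.84), Meak7 (r = 0.82) and Rpusd4 (r = 0.82). For Arntl at 1457740_at they were Znrf2 (r = 0.81), Slfn8 (r = 0.79) and Tdgf1 (r = 0.78). With the mean of each genotype within each set of replicates taken off, r was 0.85 for Mt2, 0.83 for Npl and 0.54 for Ccl8 with Nfil3. It was 0.81 for Tcap, 0.69 for Meak7 and 0.56 for Rpusd4 with Dbp, and 0.70 for Znrf2, 0.63 for Slfn8 and 0.68 for Tdgf1 with Arntl. These values describe likeness over hearts that share their arrays, and carry no test.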

How the data were processed

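Total RNA of 24 mouse hearts was labelled with biotin and hybridised to Affymetrix arrays, per the labels' protocols. The submitters' processing notes name RMA, without a version. The deposited value of a probe set is a linear ratio. That the NTG level is its denominator was read from the values, and no source used here states it. Of 45101 probe sets, 64 controls were left out. Gene symbols came from the platform annotation (34945 probe sets with 1 gene, 932 with several, 9160 with none).

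A linear model with a mean for each genotype was fitted to the log2 ratios of the 24 arrays (limma 3.58.1, R 4.3.3), followed by eBayes at its default settings. The p-values were adjusted by the Benjamini-Hochberg method over 45037 probe sets, with calls under 0.05. No filter on brightness was possible. The number of arrays limits the precision. The fit was tested on simulated data. Each gene was read at 1 probe set (suffix _at, _a_at, _s_at, _x_at, then lowest number), and members' other probe sets are given where they bear on a result, some singled out after their values were seen. All members, and at most 4 called genes of each list by size of change, were named. Members and lists were chosen with earlier results of these data known. Same-numbered hearts were not treated as pairs: their deviations correlated at -0.289 to 0.492 (median 0.037), above 0.1 in 16 of 36 pairs. The median r was 0.069 for other pairs within the same set of replicates and -0.051 for pairs across the sets. Python 3.11.15, pandas 2.3.3, scipy 1.17.1 and matplotlib 3.10.9 were used. Alternatives were quantile normalization, a replicate block, a term for replicates 1 to 3 and 4 to 6, each of these sets alone, array weights, a robust and trended error model, only the genotypes compared, 1 probe set or the mean of all per gene, and each heart left out.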

Additional observations from a re-analysis of the deposited data

Results flagged for a closer look

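Of 100 groups of 6 hearts (25 probe sets in 4 genotypes), 4 held a heart whose gap to the nearest of the others exceeded Dixon's critical value, where chance gives about 1 in 20 groups. AC5 replicate 5 had a log2 ratio of 1.0170 for Nfil3, against 0.0467 to 0.2500 in the other AC5 hearts. The same heart had -0.2339 at 1442243_at of Per3, against 0.0083 to 0.1299 in the others. GLY replicate 2 had -1.1367 at 1450184_s_at of Tef, against -0.3869 to -0.0294. NTG replicate 3 had 0.2653 at 1421086_at of Per3, against -0.0875 to 0.0279. The difference between the changes within replicates 4 to 6 and 1 to 3 was tested with limma as an interaction. It was called at 0 of all probe sets in each of the 3 comparisons with NTG. An unadjusted p under 0.05 was found at 2788 probe sets in ARG, 6776 in GLY and 1224 in AC5 hearts. Where nothing differs, about 1 in 20 of the 45037 probe sets has such a p. The AC5 count lay below that share, and the GLY count lay the farthest above it.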

How the results depend on the processing

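Every alternative kept the direction of each called change of the 10 genes, and calls lost without 1 heart stand beside their values above for the genes described there. In the main fit 10 of the 25 probe sets were called in ARG, 4 in GLY and 1 in AC5 hearts, each against NTG. The count was 6 in ARG against GLY hearts, 9 in ARG against AC5 hearts and 0 in GLY against AC5 hearts. Of all these calls, 17 were lost after quantile normalization, 23 within replicates 1 to 3 and 17 within replicates 4 to 6. With only the genotypes compared 8 were lost, with the robust, trended error model 5 and with array weights 2. Calls were gained too, 2 within replicates 1 to 3, 2 with a term for the sets of replicates, 2 with only the genotypes compared and 1 with array weights. With the mean of all probe sets per gene 2 calls were lost and 6 gained. The counts of called probe sets moved by over 1.5 times as follows. In ARG against NTG hearts 4355 were called, beside 2400 after quantile normalization, 1302 within replicates 1 to 3, 2517 within replicates 4 to 6 and 2191 with 1 probe set per gene (3490 to 4533 with 1 heart left out). In GLY against NTG hearts 2286 were called, beside 633 after quantile normalization, 72 within replicates 4 to 6, 1475 with the robust, trended error model, 1247 with only GLY and NTG hearts and 1074 with 1 probe set per gene (1337 to 3961 with 1 heart left out, the extremes without GLY replicates 3 and 6). In AC5 against NTG hearts 64 were called, beside 398, 18 and 0 after quantile normalization and within replicates 1 to 3 and 4 to 6, 525 with array weights, 23 with the robust model, 299 with only AC5 and NTG hearts and 39 with 1 probe set per gene (22 to 90 with 1 heart left out). In ARG against GLY hearts 678 were called, beside 58, 182 and 192 after quantile normalization and within each set of replicates, 95 with only ARG and GLY hearts and 431 with 1 probe set per gene (382 to 1781, the extremes without GLY replicates 1 and 6). In ARG against AC5 hearts 2220 were called, beside 889, 244 and 1370 after quantile normalization and within each set, and 1281 with 1 probe set per gene (1588 to 2510). In GLY against AC5 hearts 312 were called, beside 165, 94 and 16, 207 with the robust model, 126 with only GLY and AC5 hearts and 205 with 1 probe set per gene (157 to 583, the extremes without GLY replicates 3 and 6).

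Of the 10 member genes, 4 were called in ARG against NTG hearts, beside 2 within replicates 1 to 3 (4 to 5 with 1 heart left out) and 7 with the mean of all probe sets per gene, which added Per2 (-0.47, adjusted p = 0.0105), Per3 (-0.31, 0.0019) and Arntl (0.31, 0.0121). In GLY against NTG hearts 3 were called, beside 1 after quantile normalization, 0 within replicates 4 to 6 and 1 with the robust model (1 to 4). In ARG against GLY hearts 3 were called, beside 0 after quantile normalization, 0 within either set and 1 with only both genotypes (2 to 4). In ARG against AC5 hearts 5 were called, beside 1 after quantile normalization, 1 within replicates 1 to 3 and 3 within replicates 4 to 6 (2 to 5). In GLY against AC5 hearts 0 were called, beside 1 with a term for the sets of replicates (Per2, -0.89, adjusted p = 0.0391). Of the other clock genes, 3 were called in ARG against NTG hearts, beside 1 and 0 within the sets (1 to 3). The count in GLY against NTG hearts was 1, beside 0 after quantile normalization, within replicates 4 to 6, with array weights, with the robust model, with only both genotypes and with the mean of all probe sets (0 to 1). It was 0 in ARG against GLY hearts, beside 1 (Hlf) with the mean of all probe sets (0 to 2, with 2 without GLY replicate 6), and 2 in ARG against AC5 hearts, beside 0 within each set (2 to 2). Of the 5 pairs correlated by Pearson's r, 0 passed by r and 1 by rank (Per1 and Per2) without GLY hearts. With other probe sets of Arntl, Per2 and Per3, but not of Clock, 3 passed by r, and Per1 and Clock did not pass at an unchanged r of -0.75. Both settings were chosen after seeing the data. With only genotype means taken off, 4 pairs passed by r, of which Dbp and Clock was not among the 5. The cause was not tested; sets of 3 hearts hold fewer samples, and 1 probe set per gene means fewer probe sets tested.

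The replicate block ended 1 of the calls of the 25 probe sets, that of 1457350_at of Per2 in ARG against GLY hearts (-0.60, adjusted p = 0.0534), and changed no other; 6 of 24 hearts correlated best with hearts of their own number. Signal over background is not part of a ratio, so its limit on these values is unknown.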
